A study of Mus musculus with 12 samples.

Results

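The mRNAs described here encode the respiratory chain and the ATP synthase of mouse liver mitochondria, followed over the day at 6 time points. They were chosen by gene symbol: every row of the expression table whose symbol starts with Nduf, Uqcr, Atp5, Sdh followed by a, b, c or d, or Cox followed by a number from 4 to 8. This gave 82 of the 20069 genes of the table. By symbol, 37 belong to complex I, 4 to complex II, 7 to complex III, 15 to complex IV and 15 to the ATP synthase (complex V). Another 4 share the symbols but are no subunits. These are *Ndufaf1* and *Ndufa12l* (today *Ndufaf2*), assembly factors of complex I, *Cox4nb* (today *Emc8*), a neighbour of *Cox4i1*, and *Atp5s* (today *Dmac2l*). *Ndufa4* was kept with complex I by its symbol, although its protein is now known as a subunit of complex IV. *Cox5b* and the subunits encoded by mitochondrial DNA were not analysed here.

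Complexes I and II pass electrons from NADH and succinate to ubiquinone, complex III passes them on to cytochrome c, and complex IV reduces oxygen. Complexes I, III and IV pump protons across the inner mitochondrial membrane, and the ATP synthase uses the return of these protons to make ATP. Liver is rich in mitochondria, and most subunits are encoded in the nucleus.

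Poly(A) RNA was sequenced from livers of adult male C57BL/6 wild-type mice, 3 to 6 months old, kept in 12 hr of light and 12 hr of darkness. Zeitgeber time (ZT) counts hours from lights on, and livers were taken every 4 hr from ZT2 to ZT22 in 2 independent series, which gives 12 samples and 2 per time point. All samples share genotype and lighting, so that time of day is the only comparison. The sources used here do not say how many mice made up a sample, and p-values measure the spread between these samples. Levels are reads per base pair (rpbp), the coverage per exon base of a gene, here at 4 times the scale of the deposited table. Rpbp is taken over all exons of a gene, whichever isoforms are present. Exons not used in liver lower it, so that levels of different genes compare only roughly. The deposited table gives neither read counts nor the depth of each sample. The study lists the depth, which was not used here, and no counting interval is given.

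The labelled tissue was checked against marker genes. All 6 hepatocyte markers found in the table were above 8 rpbp, and their sum lay between 90523 and 171683 rpbp. The 4 lymphocyte markers stayed at or below 8 rpbp in every sample (3.20 to 10.7 rpbp summed), and so did the 6 markers of striated muscle, whose sum was at most 0.36 rpbp in 11 samples and 15.04 rpbp at ZT18 of series 1. Of the other lists, the 5 endothelial markers summed to 166 to 201 rpbp, the 5 stellate cell markers to 186 to 242 rpbp, the 4 cholangiocyte markers to 63.7 to 229 rpbp and the 3 erythroid markers to 353 to 1174 rpbp. The brown fat list (40.6 to 1440 rpbp) was carried by *Elovl3*. In a whole liver, fewer cells of a type and less RNA per cell cannot be told apart.

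Promoters of subunit genes with a rhythmic call, described further on, are printed. They were searched for short motifs, among them sites of factors known from nuclear respiratory genes. Each runs from 250 bases before to 50 bases after the annotated start, 5′ to 3′ on the strand of the gene, from RefSeq on build GRCm38.p6. Capitals mark matches on either strand to GCATGCGC, the core of the NRF1 site, CCGGAAG, a site of ETS factors such as GABPA, and CACGTG, the E-box bound by CLOCK and BMAL1. *Atp5g3* at chr2:73911277-73911576 (minus strand) holds an E-box, *Cox6b1* at chr7:30626065-30626364 (minus strand) an ETS match read on the opposite strand, *Ndufab1* at chr7:122101799-122102098 (minus strand) no match, and *Sdhb* at chr4:140961021-140961320 (plus strand) an NRF1 core and an ETS match that do not overlap. *Uqcrb* is named only.
Atp5g3: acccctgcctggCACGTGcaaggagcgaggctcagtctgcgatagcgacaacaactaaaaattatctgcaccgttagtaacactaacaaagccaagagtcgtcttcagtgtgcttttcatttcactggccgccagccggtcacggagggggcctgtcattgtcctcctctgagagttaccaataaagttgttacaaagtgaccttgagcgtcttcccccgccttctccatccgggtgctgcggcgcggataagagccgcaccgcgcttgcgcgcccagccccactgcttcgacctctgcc
Cox6b1: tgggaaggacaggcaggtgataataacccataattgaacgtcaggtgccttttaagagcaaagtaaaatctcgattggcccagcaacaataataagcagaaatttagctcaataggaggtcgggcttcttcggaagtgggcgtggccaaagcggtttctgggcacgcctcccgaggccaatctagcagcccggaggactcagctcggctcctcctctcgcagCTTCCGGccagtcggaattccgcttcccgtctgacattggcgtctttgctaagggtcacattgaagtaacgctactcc
Ndufab1: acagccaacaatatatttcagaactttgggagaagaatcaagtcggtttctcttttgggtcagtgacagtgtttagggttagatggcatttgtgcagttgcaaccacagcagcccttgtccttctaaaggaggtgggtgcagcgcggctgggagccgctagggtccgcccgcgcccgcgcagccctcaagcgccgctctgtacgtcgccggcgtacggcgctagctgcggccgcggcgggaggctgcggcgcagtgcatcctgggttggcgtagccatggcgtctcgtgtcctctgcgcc
Sdhb: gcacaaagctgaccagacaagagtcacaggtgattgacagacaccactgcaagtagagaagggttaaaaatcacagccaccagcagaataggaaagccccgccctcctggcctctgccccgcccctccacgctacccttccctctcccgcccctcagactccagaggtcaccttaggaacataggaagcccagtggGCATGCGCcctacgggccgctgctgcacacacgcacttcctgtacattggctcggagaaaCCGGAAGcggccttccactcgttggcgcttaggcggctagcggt

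Among the 67 of the 82 genes with a promoter entry, 10 held the NRF1 core (14.9%, against 3.05% of 27025 genes), 17 the ETS motif (25.4%, against 9.93%) and 6 the E-box (8.96%, against 8.09%). A match says which letters are present and not which protein binds.

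The mRNAs were abundant. A gene was tested if at least 1 of its 12 values exceeded 8 rpbp, which held for 76 of the 82 genes and for 10198 genes in all. The 6 that did not pass were *Cox4i2*, *Cox6a2*, *Cox6b2*, *Cox7a1*, *Cox8b* and *Ndufa4l2*, each a paralogue of an abundant subunit. The median level of the other 76 was 241 rpbp, against 22.9 rpbp for all tested genes. Together the 82 genes made up a share of the summed rpbp that was lowest at ZT2 (1.52% and 1.43% in series 1 and 2) and highest at ZT6 (1.71% and 1.79%) and ZT10 (1.71% and 1.78%). ZT22 of series 2 (1.52%) overlapped with ZT2.

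The subunit mRNAs had a shallow daily course in all 5 complexes. For each subunit with a mean of at least 8 rpbp, log2(rpbp + 1) was taken relative to its mean over the 12 samples, and the median over a complex was followed. All 5 medians, averaged over the series, were lowest at ZT2 and highest at ZT6 or ZT10. The difference between these was 0.19 in complex I (1.14-fold, 36 genes), 0.43 in complex II (1.34-fold, 4 genes), 0.32 in complex III (1.25-fold, 7 genes), 0.26 in complex IV (1.20-fold, 10 genes) and 0.24 in complex V (1.18-fold, 15 genes). The SD between the series was 0.064, 0.10, 0.063, 0.037 and 0.044 in the same order. These medians were not tested, since genes of a complex share their samples.

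**Figure D1:**
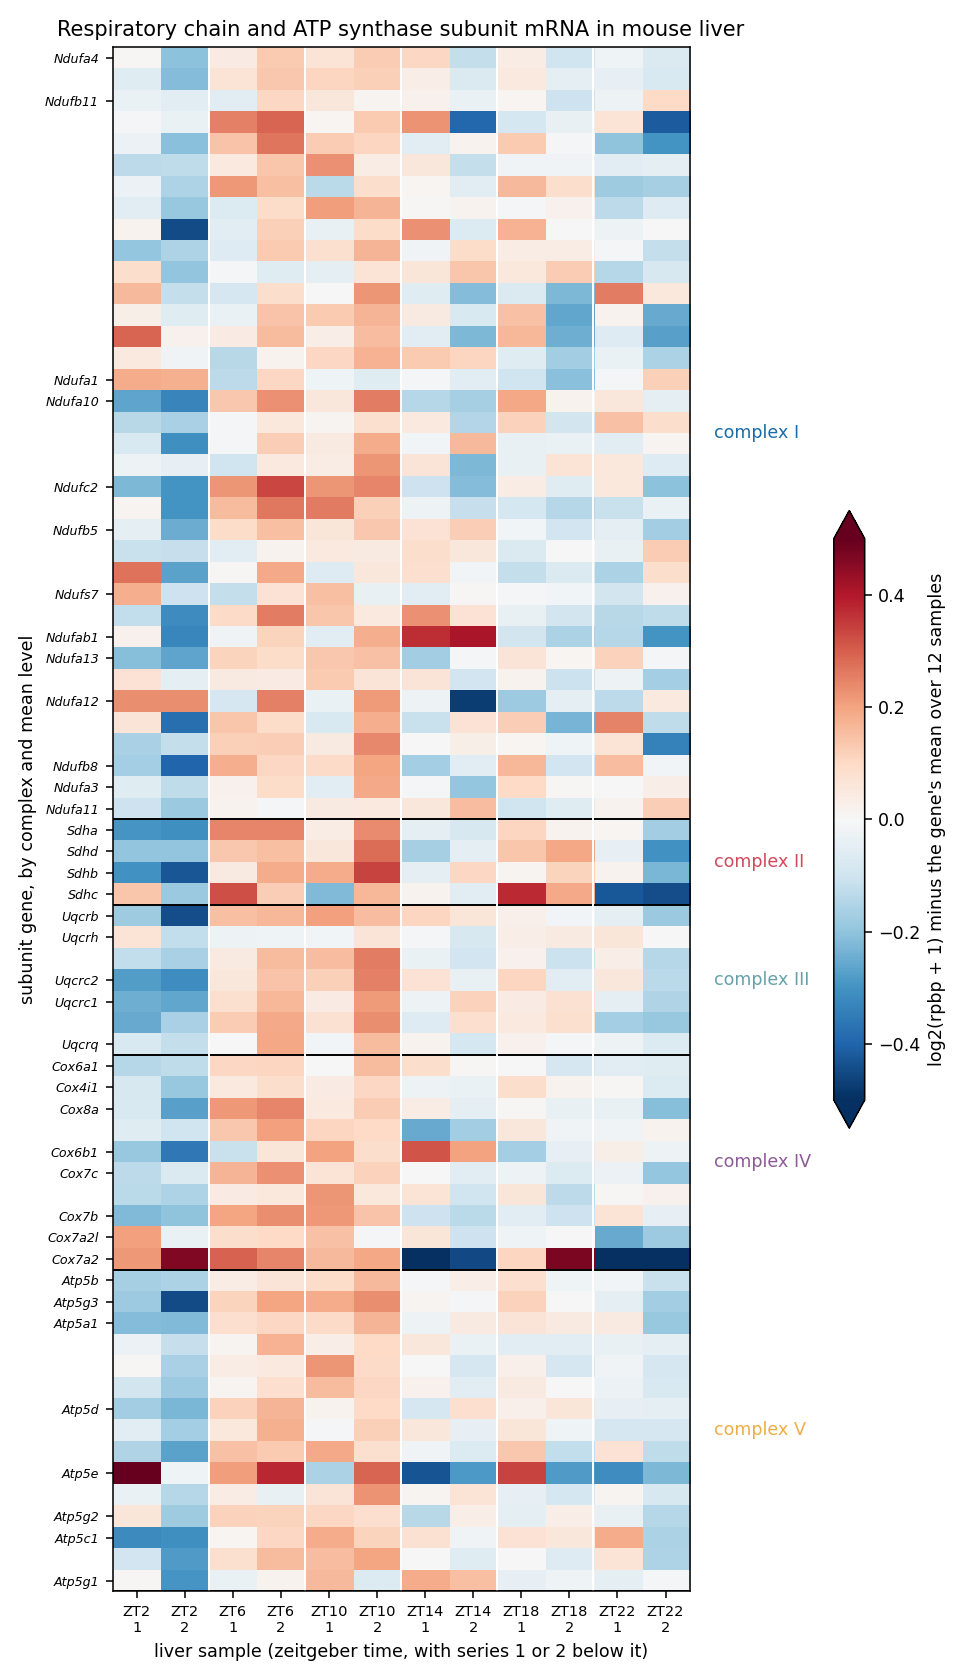
Each row is 1 of the 72 subunit genes that passed the expression minimum, grouped by complex, with labels on most of the genes named in the text, and each column is 1 of the 12 liver samples, with the series under its time. Colour shows log2(rpbp + 1) minus the mean of the gene (red above, blue below); most rows are blue at ZT2 and red at ZT6 and ZT10, while Cox7a2, Atp5e and Ndufa1 run differently.

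The depth of the course differed between the series, most of all in complex I. There the ZT2 median was -0.030 in series 1 and -0.18 in series 2, and the ZT10 median 0.052 and 0.13. In complex V the ZT2 medians also lay apart (-0.090 and -0.18). Complex II was closer at ZT2 (-0.25 and -0.25), and so were complex III (-0.18 and -0.16) and complex IV (-0.11 and -0.14). In complex II a second maximum was seen at ZT18 (0.12 and 0.15), between lower medians at ZT14 (-0.048 and -0.050) and ZT22 (-0.017 and -0.27). At ZT22 of series 2 complex II was as low as at ZT2.

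**Figure D2:**
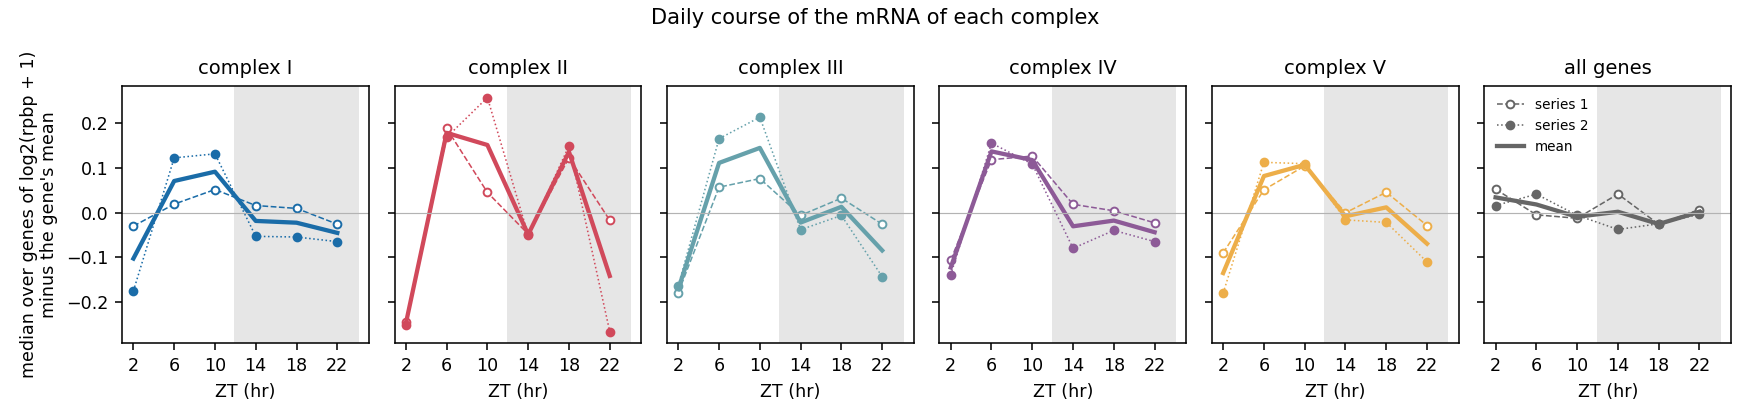
Medians over each complex of log2(rpbp + 1) minus the mean of the gene (y axis) against zeitgeber time in hr (x axis), for series 1 (open circles), series 2 (filled circles) and their mean (line), with the dark phase shaded. The means of all 5 complexes are lowest at ZT2 and highest at ZT6 or ZT10, complex II has a second maximum at ZT18, and all tested genes are drawn for comparison.

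Counted by gene, the lowest time-point mean fell at ZT2 in 47 of the 76 genes (background over all tested genes 21.9%) and at ZT22 in 14 (background 10.7%). The highest mean fell at ZT6 or ZT10 in 57 (background 35.2%). Both series showed this. In series 1 the lowest value fell at ZT2 in 37 (background 21.6%) and the highest at ZT6 or ZT10 in 42 (background 29.4%). In series 2 the counts were 50 (background 19.9%) and 65 (background 39.1%).

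The course was shallow beside that of other genes. The ratio of the highest to the lowest time-point mean had a median of 1.24 over the 76 genes and 1.40 over all tested genes. The spread between the series at a time point had a median of 6.08% of the mean against 10.8%. The steadiest genes by that ratio were *Uqcrh* (497 ± 20.2 rpbp, SD, n = 12), *Ndufb11* (479.9 ± 21.1 rpbp), *Ndufs7* (118 ± 8.05 rpbp), *Ndufa3* (66.9 ± 4.84 rpbp) and the non-subunit *Cox4nb* (16.4 ± 1.02 rpbp). *Uqcrh*, the hinge protein of complex III, ranged from 455 to 520.3 rpbp. Most subunits moved together: the correlation of a subunit with the median of the other subunits over the 12 samples had a median r of 0.752, as a description, since these points share their libraries. This r exceeded 0.5 in 52 of 72 subunits (72.2%, against 20.2% of all tested genes). The lowest r was that of *Ndufa1* (-0.44).

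ZT2 was the time point at which most genes passed a test. In limma, fitted on all tested genes, each time point was compared with the mean of the other 5 on log2(rpbp + 1), with the Benjamini-Hochberg adjustment. Of the 76 genes, 15 were lower at ZT2 (19.7%, background 9.79%) and 1 was higher, *Cox7a2* (background 9.62%). The fitted difference was below 0 in 62 (81.6%, background 43.4%), with a median of -0.16 against 0.044 over all tested genes. In 24 genes both ZT2 values lay below the 10 others (background 9.58%), and in 1, *Ndufa1*, above them (background 10.4%). Leaving out a ZT2 or ZT6 sample lowered this count together with that of all genes. Without ZT2 of series 1, 2 of the 76 genes were lower (background 2.73%), without ZT2 of series 2, 0 (background 2.87%), without ZT6 of series 1, 9 (background 8.06%), and without ZT6 of series 2, 8 (background 7.76%). The median difference stayed below 0 in each of these and was -0.081 without ZT2 of series 2.

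**Figure D3:**
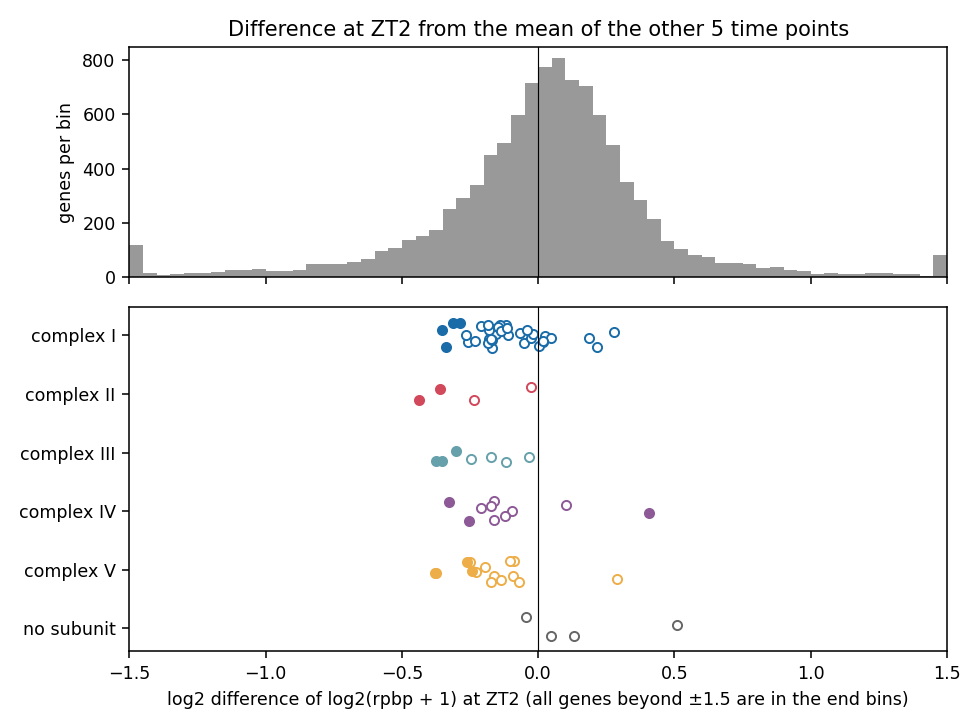
The upper panel shows how many of the 10198 tested genes have each log2 difference between ZT2 and the mean of the other 5 time points, and the lower panel shows this difference for each of the 76 genes by complex (filled points passed the adjusted limma test at 0.05). Most subunits lie left of 0 in all 5 complexes, and the filled point on the right is Cox7a2.

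The 15 genes came from all 5 complexes, with 4 from complex I, 2 from complex II, 3 from complex III, 2 from complex IV and 4 from complex V. Their differences ran from -0.44 to -0.24 and their adjusted p from 0.0153 to 0.0461 in limma. Over 17 other settings, the fewest calls were those of *Atp5d* (4 of 17), *Atp5a1* (5), *Ndufb8* (6) and *Ndufc2* (9), and the difference was below 0 in all 17 for each of the 15. In 13 of them both ZT2 values were below the 10 others. At other times, *Cox7a2* was lower at ZT14 (background 1.17%) and at ZT22 (background 0.471%), and none was higher at ZT14 (background 1.43%) or ZT22 (background 0.735%). In limma 0 genes were called at ZT6 (background 3.04% lower, 3.87% higher), with 15 higher (background 13.9%) and 0 lower (background 10.8%) at an unadjusted p below 0.05. At ZT10 0 were called (background 2.70% lower, 2.23% higher), with 16 higher (background 10.7%) and 0 lower (background 11.8%) unadjusted, and at ZT18 0 (background 0.216% lower, 0.333% higher), with 2 higher (background 5.50%) and 2 lower (background 8.87%) unadjusted.

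Other transcripts moved with ZT2 as well. *Alb*, the albumin mRNA, stood at 50445 and 53126 rpbp at ZT2 and between 93174 and 122523 rpbp in the other 10 samples. The hepatocyte markers without *Alb* summed to 40077 and 40251 rpbp at ZT2, within the 36916 to 49161 rpbp of the others, but single markers moved. *Ttr* stood at 9533 and 9369 rpbp at ZT2, below the 11885 to 14781 rpbp of the other samples. *Apoa1* stood at 17423 and 17762 rpbp at ZT2, above the 7866 to 15191 rpbp of the other samples. *Serpina1a* stood at 3877 and 3883 rpbp at ZT2, above the 2337 to 3726 rpbp of the other samples. The 6 Kupffer cell markers, 5 of them above 8 rpbp, summed to 568 and 566 rpbp at ZT2 and to between 273 and 452 rpbp elsewhere. The part of these shifts in the ZT2 result was not tested.

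Complex I, NADH dehydrogenase, had a wide range of levels among its 36 genes above the expression minimum, from 49.2 ± 3.38 rpbp (SD, n = 12) for *Ndufa11* to 905 ± 65.1 rpbp for *Ndufa4*. The ZT2 difference was below 0 in 28 of its 36 tested genes (background 43.4%), and 4 passed the test as lower (background 9.79%). The 4 were *Ndufa10*, at -0.35 (SE 0.083, adjusted p = 0.0206 in limma), *Ndufa13*, at -0.29 (SE 0.073, adjusted p = 0.0277 in limma), *Ndufb8*, at -0.34 (SE 0.10, adjusted p = 0.0438 in limma), and *Ndufc2*. *Ndufc2*, a subunit of the membrane arm, stood at 135 and 128 rpbp at ZT2, 184 and 198 rpbp at ZT6, 184 and 187 rpbp at ZT10, 146 and 135 rpbp at ZT14, 161 and 151 rpbp at ZT18 and 163 and 136 rpbp at ZT22, series 1 first here and below. Its 4 values at ZT6 and ZT10 were above all others, and its ZT2 difference was -0.31 (SE 0.086, adjusted p = 0.0353 in limma). Its 6 time points differed (adjusted p = 0.0376 in limma), a call lost without 10 of the 12 samples when each was left out in turn.

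*Ndufb5* had the highest F24 of complex I (0.679), where F24 is the share of the variance of the 12 values taken up by a 24 hr cosine, but its highest value was only 1.32 times its lowest. *Ndufa1*, a small membrane subunit, ran the other way. It was highest at ZT2 (205 ± 0.764 rpbp, SD, n = 2) and lowest at ZT18 (163 ± 8.82 rpbp). *Ndufa12*, whose r with the median of the other subunits was 0.048, had its highest mean at ZT2 (122 and 122 rpbp) and its lowest at ZT14 (102 and 74.1 rpbp). Neither passed a limma test. For *Ndufa12*, 44.3% of the transcript has a near-identical copy elsewhere in the genome, which leaves its level uncertain.

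Complex II, succinate dehydrogenase, is also an enzyme of the tricarboxylic acid cycle. *Sdha*, the flavoprotein, averaged 528 ± 69.5 rpbp (SD, n = 12), *Sdhd* 443 ± 56.6 rpbp, *Sdhb* 348 ± 51.5 rpbp and *Sdhc* 303 ± 54.9 rpbp. *Sdha* stood at 427 and 424 rpbp at ZT2, 621 and 621 rpbp at ZT6, 537 and 617 rpbp at ZT10, 507 and 496 rpbp at ZT14, 565 and 531 rpbp at ZT18 and 527 and 464 rpbp at ZT22. Both ZT2 values lay below and both ZT6 values above every other sample. Its ZT2 difference was -0.36 (SE 0.081, adjusted p = 0.0178 in limma), and its time points differed (adjusted p = 0.0461 in limma), a call that was lost without 10 of the 12 samples when each was left out in turn.

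*Sdhb*, the iron-sulfur subunit, had the greatest fitted fall at ZT2 of the 76 genes, at -0.44 (SE 0.094, adjusted p = 0.0153 in limma). It stood at 279 and 256 rpbp at ZT2, 356 and 392 rpbp at ZT6, 392 and 436 rpbp at ZT10, 333 and 370.1 rpbp at ZT14, 348 and 372 rpbp at ZT18 and 349 and 294 rpbp at ZT22. Both ZT2 values were below the 10 others. Of the membrane anchors, *Sdhd* stood at 384 and 384 rpbp at ZT2, 483 and 488 rpbp at ZT6, 457 and 535 rpbp at ZT10, 392 and 427 rpbp at ZT14, 484 and 503 rpbp at ZT18 and 427 and 356 rpbp at ZT22. It was higher at ZT6, ZT10 and ZT18 than at ZT2 and ZT22 in both series. *Sdhc* was lowest at ZT22 (222 and 219 rpbp) and highest at ZT18 (387 and 340.4 rpbp), with 328 and 262 rpbp at ZT2. The ratio of highest to lowest time-point mean was 1.65 for *Sdhc*, and its time points did not pass the test (adjusted p = 0.0748 in limma).

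In complex III, 6 of the 7 genes had their lowest mean at ZT2, and the exception was *Uqcrh*. *Uqcrb*, which helps to bind ubiquinone, had the highest mean (528 ± 65.3 rpbp, SD, n = 12) and *Uqcrq* the lowest (239 ± 16.02 rpbp). *Uqcrb* lies at chr13:67001553-67006314 (mm9, minus strand), and 90.5% of its transcript has a near-identical copy elsewhere in the genome, which leaves its level uncertain. It stood at 463 and 385 rpbp at ZT2, 582 and 589 rpbp at ZT6, 604 and 583 rpbp at ZT10, 565 and 546 rpbp at ZT14, 534 and 519 rpbp at ZT18 and 508 and 460.3 rpbp at ZT22. From ZT10 to ZT22 it fell step by step in both series, and ZT22 of series 2 overlapped with ZT2. Its ZT2 difference was -0.37 (SE 0.084, adjusted p = 0.0176 in limma). The core proteins *Uqcrc1*, at -0.30 (SE 0.078, adjusted p = 0.0285 in limma), and *Uqcrc2*, at -0.35 (SE 0.084, adjusted p = 0.0219 in limma), were also lower. *Uqcrfs1*, the Rieske iron-sulfur protein, did not pass, at -0.17 (SE 0.079, adjusted p = 0.155 in limma).

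In complex IV, cytochrome c oxidase, *Cox6a1* (848 ± 57.5 rpbp, SD, n = 12), *Cox4i1* (780.2 ± 44.9 rpbp) and *Cox8a* (698 ± 73.6 rpbp) had the highest means. *Cox6b1* and *Cox7b* were lower at ZT2. *Cox7b* stood at 259.6 and 263 rpbp at ZT2, 347 and 355 rpbp at ZT6, 352 and 334 rpbp at ZT10, 282 and 275 rpbp at ZT14, 292 and 281 rpbp at ZT18 and 317 and 294 rpbp at ZT22. Its ZT6 and ZT10 values were above all others and its ZT2 values below them. The ZT2 difference was -0.25 (SE 0.067, adjusted p = 0.0315 in limma), and the time points differed (adjusted p = 0.0359 in limma), a call lost without 10 of the 12 samples when each was left out in turn. *Cox7c* had the highest F24 of the complex (0.609), with a peak at 8.38 hr.

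*Cox7a2*, the subunit VIIa form known from liver, had a course of its own. It stood at 198 and 234 rpbp at ZT2, 209 and 201 rpbp at ZT6, 190.1 and 194 rpbp at ZT10, 114 and 124 rpbp at ZT14, 183 and 236 rpbp at ZT18 and 118 and 111 rpbp at ZT22. All 4 values at ZT14 and ZT22 lay below the 8 others, a course with troughs at both times that a 24 hr cosine takes up poorly (F24 0.199). Its time points differed (adjusted p = 0.00605 in limma), and this call held without each of the 12 samples in turn. The difference was -0.62 (SE 0.11, adjusted p = 0.0272 in limma) at ZT14 and -0.68 (SE 0.11, adjusted p = 0.0291 in limma) at ZT22. With no expression minimum both were lost. The ZT14 call was also lost without 4 of the 12 samples in turn (ZT6 or ZT14 of either series), and the ZT22 call without 7 (ZT2, ZT6 or ZT22 of either series and ZT14 of series 2). At ZT2 it was 0.41 (SE 0.11, adjusted p = 0.0291 in limma), a call lost without either ZT2 sample, without ZT6 of series 2, with no expression minimum and with median-of-ratios scaling (adjusted p = 0.0515 in limma). The gene lies at chr9:79603048-79607660 (mm9, minus strand), with no exon shared with another gene and no near-identical copy found.

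The ATP synthase held the most abundant of the 82 mRNAs. *Atp5b*, the catalytic β subunit, averaged 1561 ± 109 rpbp (SD, n = 12), *Atp5g3*, a gene for the membrane ring subunit c, 1418 ± 182 rpbp, and *Atp5a1*, the α subunit, 1004 ± 90.2 rpbp. *Atp5b* also had the highest F24 of the complex (0.585), but its highest value was only 1.25 times its lowest. Of the 15 genes, 13 had their lowest mean at ZT2. Lower there were *Atp5g3*, at -0.38 (SE 0.086, adjusted p = 0.0187 in limma), the stalk subunit *Atp5c1*, at -0.38 (SE 0.093, adjusted p = 0.0245 in limma), *Atp5a1*, at -0.26 (SE 0.077, adjusted p = 0.0443 in limma), and *Atp5d*, at -0.24 (SE 0.072, adjusted p = 0.0461 in limma). *Atp5c1* stood at 227 and 228 rpbp at ZT2, and its 10 other values lay above these.

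*Atp5e*, which encodes the ε subunit of the same stalk, ran differently. It stood at 479.6 and 334 rpbp at ZT2, 392 and 440.1 rpbp at ZT6, 303 and 415 rpbp at ZT10, 251 and 278 rpbp at ZT14, 428 and 278 rpbp at ZT18 and 273 and 289.9 rpbp at ZT22. The series lay far apart at ZT2, ZT10 and ZT18. Although the highest value was 1.91 times the lowest, the time points did not pass the test (adjusted p = 0.233 in limma). Its ZT2 difference, 0.29 (SE 0.19), was the only one above 0 among the 15 genes of the complex.

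Rhythm was scored by the criteria of the study: F24 above 0.45, a permutation p below 0.05 from 10000 random orders of the 12 values, and an amplitude (highest over lowest value) above 1.5. Of the 76 genes, 6 met them (7.89%, background 19.1%). They were 1 subunit of each complex, *Ndufab1*, *Sdhb*, *Uqcrb*, *Cox6b1* and *Atp5g3*, and the non-subunit *Atp5s*. *Atp5s* passed the expression minimum only through values at ZT2, ZT6 and ZT10, where it was high, so that its calls are a description only. Besides *Atp5s*, 0 of the 76 met the stricter limits of the study on F24 and amplitude (background 7.89%). Taken singly, F24 exceeded 0.45 in 31 (background 30.6%) and the permutation p was below 0.05 in 19 (background 26.6%), but the amplitude exceeded 1.5 in only 18 (background 64.3%). After adjustment over all tested genes, 0 of the permutation p of the 76 were below 0.05 (background 5.82%). The 24 hr cosine in limma called 0 of the 72 subunits (background 8.61%), with *Atp5s* the only call among the 76 genes. That call was lost with a minimum of 16 rpbp, where the gene is not tested, with no minimum and with the series as a block. It was also lost without 6 of the 12 samples in turn (ZT2 of series 1 and all of series 2 but ZT10). Of the 76 genes the cosine called 15 (background 27.4%) at an unadjusted p below 0.05. The time points differed by limma in 4, *Ndufc2*, *Sdha*, *Cox7b* and *Cox7a2* (background 17.6%), and in 22 (background 37.2%) at an unadjusted p below 0.05. With the series as a block the count of 4 was 1 (background 13.7%), and with no minimum 1 (background 6.07%). With a minimum of 16 rpbp it was 10 (background 24.1%), and with median-of-ratios scaling 9 (background 18.6%). The count of 4 was 1 without ZT2 of series 1 or 2 (background 7.10% and 7.42%), without ZT6 of series 1 or 2 (8.49% and 8.71%), without ZT14 of series 1 or 2 (12.7% and 11.7%) and without ZT18 of series 1 (14.6%), and 2 without ZT10 or ZT18 of series 2 (14.8% and 13.7%).

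The 18 subunits with a permutation p below 0.05 peaked between 8.21 and 12.7 hr (median 11.1 hr), around the end of the light phase. Their amplitudes ran from 1.22 to 1.70, and 13 of them did not exceed 1.5. The count of 6 rhythmic calls was 1 without ZT2 of series 2 (background 16.2%) and 3 without ZT22 of series 2 (background 16.7%). Without both ZT2 samples, a setting added after the data were seen, it was 1 (background 15.1%). This 1 gene was *Atp5s*, so that no subunit was called in that setting. With each sample left out in turn, the call held in 6 of 12 fits for *Atp5g3*, 7 for *Sdhb*, 8 for *Ndufab1*, 10 for *Cox6b1* and 11 for *Uqcrb*. Each series alone gave 0 calls, at a background of 2.80% in series 1 and 3.62% in series 2.

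*Cox6b1*, on the outer side of complex IV, stood at 517 and 459.7 rpbp at ZT2, 546 and 615 rpbp at ZT6, 678 and 628 rpbp at ZT10, 733 and 678 rpbp at ZT14, 524 and 572 rpbp at ZT18 and 602 and 579 rpbp at ZT22 (F24 0.604, permutation p = 0.0144, peak at 12.7 hr). Its mean was highest at ZT14, and both ZT2 values were below the 10 others. *Ndufab1*, the mitochondrial acyl carrier protein and a subunit of complex I, stood at 113 and 88.5 rpbp at ZT2, 109.8 and 120.2 rpbp at ZT6, 107 and 126 rpbp at ZT10, 144 and 148 rpbp at ZT14, 104 and 99.6 rpbp at ZT18 and 100.6 and 90.2 rpbp at ZT22 (F24 0.556, permutation p = 0.0245, peak at 11.9 hr). Both ZT14 values lay above the 10 others, and the ZT2 values overlapped with the rest.

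*Atp5g3* stood at 1238 and 1031 rpbp at ZT2, 1521 and 1611 rpbp at ZT6, 1601 and 1654 rpbp at ZT10, 1421 and 1401 rpbp at ZT14, 1524 and 1403 rpbp at ZT18 and 1361 and 1245 rpbp at ZT22 (F24 0.525, permutation p = 0.0354, peak at 11.1 hr). Its ZT2 values were the lowest of the 12. *Sdhb* peaked at 11.5 hr (F24 0.544, permutation p = 0.0287) and *Uqcrb* at 11.1 hr (F24 0.653, permutation p = 0.00610). On mm9 *Atp5g3* lies at chr2:73746504-73749383 and *Cox6b1* at chr7:31401993-31411170, each on the minus strand. *Sdhb* lies at chr4:140517118-140535108 on the plus strand and *Ndufab1* at chr7:129228917-129245400 on the minus strand. Near-identical copies cover 14.5% of the *Ndufab1* transcript, and none was found for *Atp5g3*, *Cox6b1* or *Sdhb*.

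**Figure D4:**
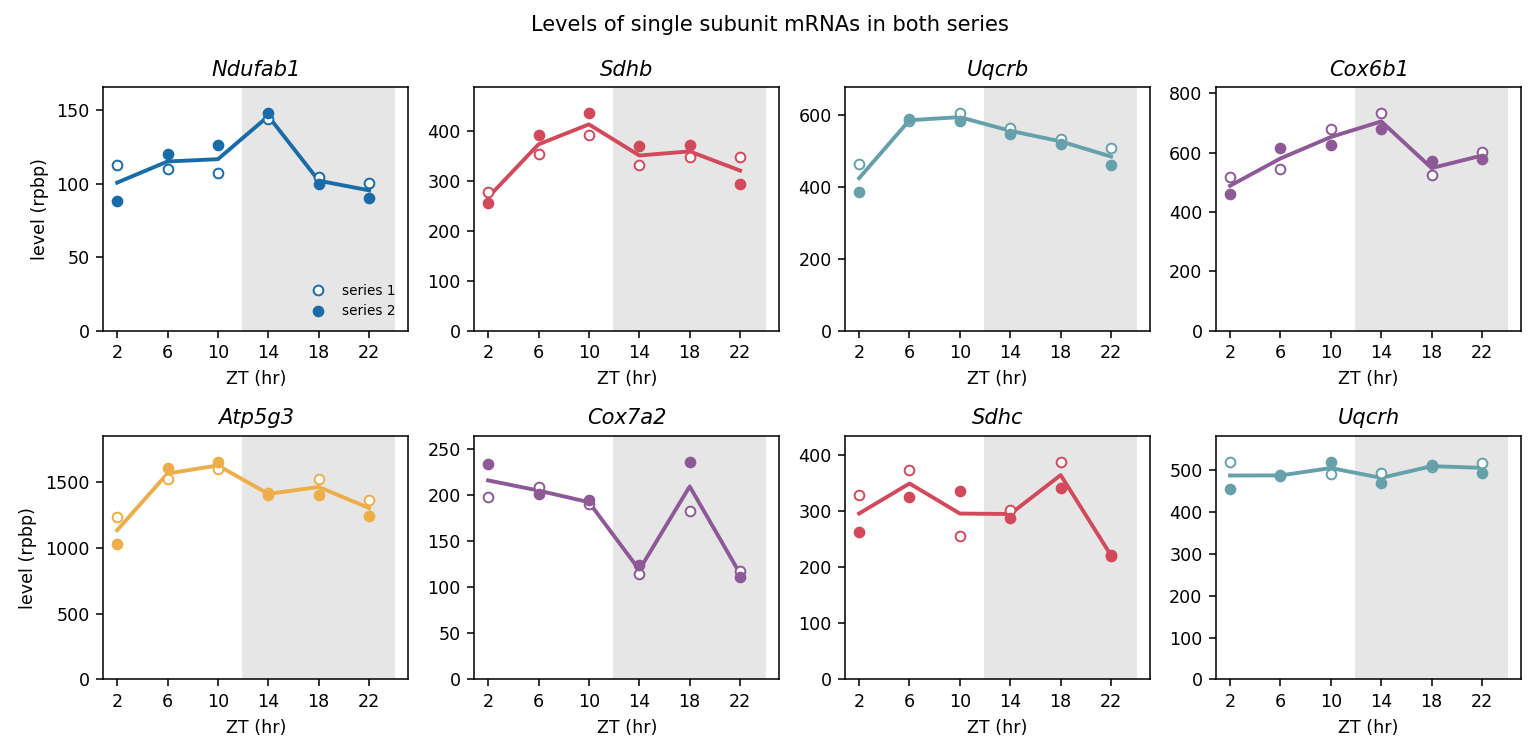
Levels in rpbp (y axes from 0) against zeitgeber time in hr for the 5 subunits with a rhythmic call, for Cox7a2 and Sdhc, which run differently, and for Uqcrh, which is steady. Open circles are series 1, filled circles series 2, the line joins the means of 2 samples and shading marks the dark phase; the means of the rhythmic subunits are highest at ZT10 or ZT14, while Cox7a2 has troughs at ZT14 and ZT22.

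For subunits IV, VIa, VIb and VIII of complex IV, the liver samples held mainly 1 gene of a pair, while *Cox7a2* and *Cox7a2l* were both abundant. The lowest value over the 12 samples was 684 rpbp for *Cox4i1*, 766 rpbp for *Cox6a1*, 459.7 rpbp for *Cox6b1* and 574 rpbp for *Cox8a*. *Cox4i2*, known from lung, was listed at 0 in 10 samples and reached 0.360 rpbp at most. *Cox6a2* and *Cox8b*, known from heart and skeletal muscle, were listed at 0 in 8 and 11 samples and reached 1.48 and 1.56 rpbp. Both were listed at 0 at ZT18 of series 1, the sample with muscle markers. *Cox6b2*, known from testis, was listed at 0 in 5 samples and reached 1.16 rpbp. *Cox7a1*, the muscle form of subunit VIIa, averaged 2.53 ± 1.41 rpbp (SD, n = 12) against 176 ± 46.6 rpbp for *Cox7a2*, and *Cox7a2l*, known from respiratory supercomplexes, averaged 244 ± 22.2 rpbp. In the same way *Ndufa4l2*, known from the response to low oxygen, averaged 2.53 ± 1.05 rpbp against 905 ± 65.1 rpbp for *Ndufa4*.

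Subunit c of the ATP synthase is encoded by 3 genes with the same mature protein, and all 3 were expressed. *Atp5g3* gave 79.6% ± 1.57 (SD, n = 12) of their summed level, *Atp5g2* 17.5% ± 1.42 and *Atp5g1* 2.93% ± 0.299. Their ranges over the samples did not overlap. The ratio of highest to lowest time-point mean was 1.44 for *Atp5g3*, 1.15 for *Atp5g2* and 1.24 for *Atp5g1*. *Atp5g2* has near-identical copies over its whole transcript and *Atp5g1* over 27.9% of it, which leaves their levels uncertain. The annotated exons also differ in length, with 4908 bases for *Atp5g1*, 647 for *Atp5g2* and 2181 for *Atp5g3*. The part of exon length in these shares was not tested.

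**Figure D5:**
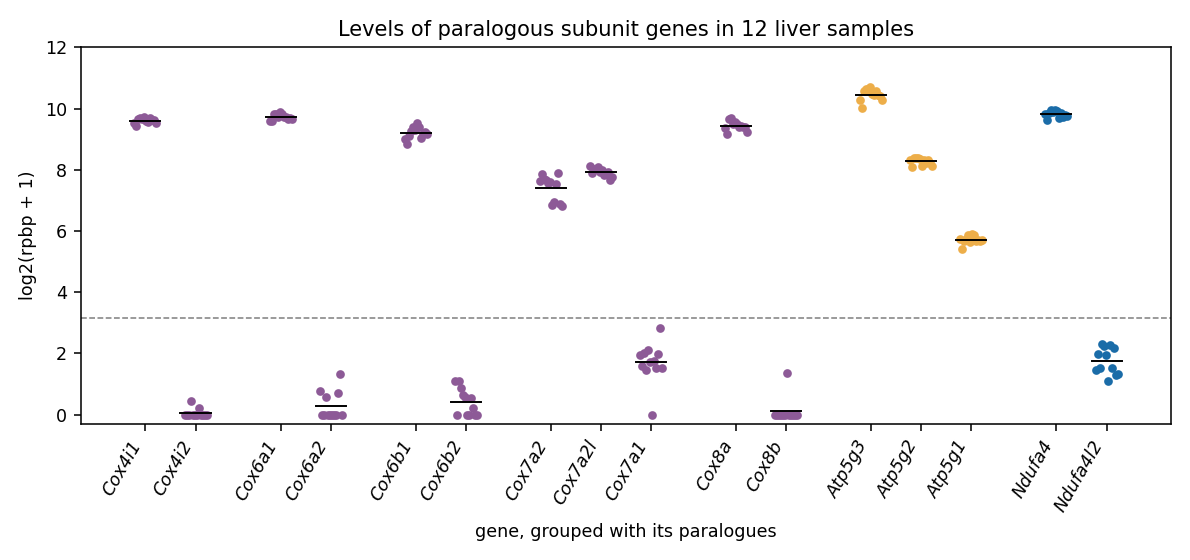
Levels on a log2(rpbp + 1) scale (y axis) of subunit genes beside their paralogues (x axis), with 1 point per sample (12 per gene), a bar at the mean and a dashed line at the expression minimum of 8 rpbp. Cox4i2, Cox6a2, Cox6b2 and Cox8b stay near 0, Cox7a1 and Ndufa4l2 stay below the minimum, and the 3 genes of ATP synthase subunit c lie at separate levels above it.

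Of the 4 genes that are no subunits, *Ndufaf1* (51.5 ± 4.03 rpbp, SD, n = 12), *Ndufa12l* (30.2 ± 3.58 rpbp) and *Cox4nb* passed none of the limma tests. *Atp5s* was low, at 10.4 and 9.04 rpbp at ZT2, 7.92 and 9.20 rpbp at ZT6, 9.56 and 6.28 rpbp at ZT10, 6.16 and 5.36 rpbp at ZT14, 3.28 and 5.44 rpbp at ZT18 and 6.96 and 7.32 rpbp at ZT22. Of these values, 4 exceeded the minimum of 8 rpbp, all at ZT2, ZT6 or ZT10. It was thus tested only through the times at which it was high, and its p-values are left out.

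Other genes of the pathway were read from 3 lists. Of 23 tested electron carriers and assembly factors, 3 were lower at ZT2 by limma, *Etfa*, *Nubpl* and *Ttc19*, and 0 were higher, with 13 differences below 0. The shares over all tested genes were 9.79% lower, 9.62% higher and 43.4% below 0. *Nubpl* stood at 7.32 and 6.16 rpbp at ZT2, below the expression minimum, and reached 14.48 rpbp at ZT10 of series 2. It was thus tested only through other times, at which it was higher, so that its call is a description only. *Etfa*, which carries electrons from fatty acid oxidation, stood at 390.2 and 345 rpbp at ZT2, below the 10 other values, at -0.31 (SE 0.089, adjusted p = 0.0420 in limma). *Cycs*, cytochrome c, stayed between 132 and 159 rpbp. Of 4 tested genes of uncoupling and exchange, 1 was lower at ZT2 and 0 were higher. The lower gene was the ADP/ATP carrier *Slc25a5*, at -0.29 (SE 0.074, adjusted p = 0.0269 in limma).

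Of 9 tested regulators of mitochondrial genes, 0 were lower and 1, the coactivator *Pprc1*, was higher at ZT2 (background 9.79% lower, 9.62% higher), at 0.74 (SE 0.17, adjusted p = 0.0179 in limma). *Esrra*, a nuclear receptor known to act on respiratory genes, stood at 15.2 and 17.2 rpbp at ZT2, 19.4 and 20.1 rpbp at ZT6, 20.1 and 18.8 rpbp at ZT10, 17.2 and 19.8 rpbp at ZT14, 15.4 and 16.4 rpbp at ZT18 and 13.0 and 14.1 rpbp at ZT22. Its values were highest around ZT6 and ZT10 and lowest at ZT22, with a peak at 9.42 hr (F24 0.825, adjusted p = 0.0198 for the cosine in limma). *Ppargc1b*, the coactivator PGC-1β, stood at 6.08 and 8.16 rpbp at ZT6, above the 10 other values. Of its 12 values only that of ZT6 in series 2 exceeded the minimum of 8 rpbp, so that it was tested through this time point alone and no test is given. *Nrf1* (2.88 ± 0.558 rpbp, SD, n = 12) and *Ppargc1a* (4.25 ± 1.63 rpbp) stayed below the minimum.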

How the data were processed

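Poly(A) RNA of 12 mouse liver samples was sequenced. The authors aligned the sequences to mm9 with TopHat (CASAVA 1.8 is also in the submitters' processing notes) and deposited, for each gene, a signal that is the coverage per exon base in reads per base pair, without strand, scaled to a common number of uniquely mapped sequences. These values were multiplied by 4. They are not counts, so no count model was used. The columns headed ZT20 belong to the ZT22 samples. Deposited columns of rhythm scores, phases and p-values were not used.

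F24, its permutation p (seed 1) and the amplitude were computed with Python 3.11.15 and numpy 2.4.6. Tests used limma 3.58.1 (R 4.3.3) on log2(rpbp + 1), over the 10198 genes with a value above 8 rpbp, with Benjamini-Hochberg adjusted p below 0.05 as the call, and fold changes are on that scale. The 6 contrasts of time points share samples. Near-identical copies (98% identity) were sought with blastn 2.17.0 on mm9. They were found for 17 genes, and in 8 of these over more than 50% of the transcript. Alternatives were 16 rpbp or no minimum, a pseudocount of 0.1, median-of-ratios size factors, the series as a block, and samples left out.

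The members and lists were chosen with earlier results of these data known. Named by rule were the highest and lowest mean and the highest F24 of each complex, the rhythmic genes, the 5 steadiest and 5 most variable genes, paralogue groups and the Sdh genes. Genes named for a limma call, *Ndufa1*, *Ndufa12* and single genes of the other lists were chosen after their values were seen. Some items are not reported here.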

Additional observations from a re-analysis of the deposited data

How the results depend on the processing

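The count of 6 rhythmic genes became 0 with the adjusted permutation p, 3 with the amplitude taken from time-point means and 19 with no amplitude minimum, and lay between 0 and 7 when single samples or a whole series were left out. The 1 gene with a 24 hr cosine was the non-subunit *Atp5s*, which is also 1 of the 6 rhythmic genes. Its calls are a description only. The cosine count became 0 with no minimum, with the series as a replicate block and with a minimum of 16 rpbp. With that last minimum the gene is not tested. The cosine count also changed with samples left out. The 4 genes that differed between time points (background 17.6%) became 10 with a minimum of 16 rpbp (background 24.1%) and 1 with no minimum (background 6.07%). They became 9 with size factors (background 18.6%) and 1 with the replicate block (background 13.7%). Their number also changed with samples left out. The 16 genes lower at some time point became 10 with no minimum and fewer with samples left out. Those lower at ZT2 (15, background 9.79%) became 10 with no minimum (background 4.14%) and fewer with samples left out. They became 17 with a minimum of 16 rpbp (background 12.7%) and 20 with size factors (background 11.7%). The 1 gene higher at some time point became 5 with a minimum of 16 rpbp, 0 with no minimum and 2 with size factors. That count also changed with samples left out. For the counts lower or higher at some time point, no share over all genes was computed. Fewer genes are tested with the higher minimum and more with none; otherwise the cause was not tested. Without both ZT2 samples, added after the data were seen, 1 gene, *Atp5s*, was rhythmic (background 15.1%). In that setting 0 had a cosine (background 5.82%) and 1 differed between time points (background 4.60%). The daily course was then 0.13 in complex I, 0.32 in II, 0.22 in III, 0.20 in IV and 0.19 in V (log2). With a single series it was 0.10 to 0.33 in complex I, 0.43 to 0.54 in II, 0.31 to 0.39 in III, 0.25 to 0.28 in IV and 0.20 to 0.31 in V, and with size factors 0.29 in V. The series numbers did not pair the samples. Deviations from the time-point means correlated between -0.153 and 0.206 over 15 pairs of time points, and 2 of these exceeded 0.1. With the block 14 genes were lower at ZT2 (background 9.14%). Adjusted p-values of named genes were recomputed with size factors, with the block and with samples left out, but not with other minima. Of 1218 such values, 1159 kept their call or its absence, 46 lost a call, 13 gained one and 0 reversed. A value with no call in either setting counts as kept, and the share of calls among the 1159 is not given. The cosine and time-point tests have no direction, so that 0 reversed says little. The depth per sample was not used, and 2 samples per time point limit what the tests can detect.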
